A study of Mus musculus with 8 samples.

Results

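Of the 45281 probes on the array, 2670 were bright and form the material of this comparison of 4 arrays of mouse cells that carried a Nanog transgene with 4 arrays of the same cells that did not. A probe was called bright when its mean log2 intensity over all 8 arrays was above 9, an intensity of 512, after values below 16 had been raised to 16. The last probe inside the threshold read Lcmt1 at a mean log2 level of 9.0002, and the first outside it read Cd2bp2 at 8.9996, so the edge has no gap. Bright probes were 5.90% of the array. They held 2253 probes with a gene symbol, which stood for 1883 named genes, and 417 probes without one. All 8 arrays of the series were used, and the Sin3a transgene, which was present on 4 of them, entered the comparison as a term of its own.

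The cells were female pre-iPSCs, that is, cells stalled partway between a neural stem cell and an induced pluripotent stem cell, of the 129/MF1 strain, with an Oct4-GFP-IRES-puro reporter. All 4 groups grew in serum with LIF, were transfected with PiggyBac-CAG vectors and the transposase, were selected with hygromycin, blasticidin or both, and were taken at day 0 of reprogramming, which the labels do not define further. Each group received a pair of vectors, which were Nanog with an empty vector (called Nanog here), Nanog with Sin3a (Nanog+Sin3a), Sin3a with an empty vector (Sin3a), and a pair of empty vectors (EV). The labels number 2 arrays per group as replicates and leave unsaid if they stem from separate transfections or cultures or if a line was a clone, so p-values measure the spread between these arrays, which may be technical. The CAG promoter is active in most cell types, and the RNA came from the whole culture, so fewer cells of a kind and less RNA per cell cannot be told apart.

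Nanog encodes a DNA-binding homeodomain protein that keeps embryonic stem cells pluripotent. It binds many of the same regulatory regions as Oct4 and Sox2, is low or absent in pre-iPSCs, and helps such cells to complete reprogramming when it is supplied from a transgene. Sin3a organises a complex that brings histone deacetylases to genes and represses them. From its title, the study concerned how this complex and Nanog work together, and the comparison here takes up what the arrays with Nanog share whether or not Sin3a was added.

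Nanog RNA was seen on each of the 4 arrays labelled with the transgene. Where the probe lies in the gene was not examined, so RNA of the transgene and of the cells' own Nanog gene cannot be told apart. The probe read 365 and 486 intensity units with Nanog and 289.5 and 285 with Nanog+Sin3a. It read -3.60 and -5.40 with EV and -7.30 and -12.2 with Sin3a, all below the floor of 16. A second Nanog probe lay between -4.80 and 21.0 on all 8 arrays and did not separate the groups. The Sin3a probe was bright and read 329 and 262 with EV, 1182 and 1142 with Sin3a, 344 and 472 with Nanog, and 1485 and 1483 with Nanog+Sin3a. It also rose with Nanog (log2 0.41, SE 0.11, adjusted p = 0.00739), with effects of 0.46 and 0.35 without and with the Sin3a transgene and an adjusted p of 0.949 for the difference between them.

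The second Sin3a array departed from its replicate at low and middle intensities, which is why the comparison was kept to bright probes. The median absolute difference between the Sin3a arrays was 2.50 on the log2 scale for probes with a mean from 6 to 7, 0.35 from 8 to 9, and 0.15 from 9 to 10, where the other groups lay between 0.11 and 0.16. Over the bright probes the replicates of a group correlated at r = 0.981 to 0.989 in all 4 groups, a value across probes, which are not independent. No bright probe was at the floor on any array. The first principal component of the bright probes held 51.3% of the variance and placed the arrays with Nanog between 2.12 and 7.61 and those without between -8.05 and -4.41.

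**Figure D1:**
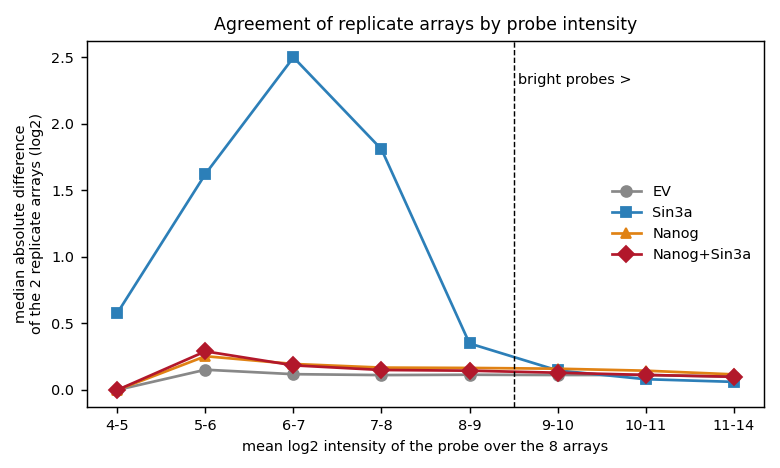
Median absolute difference between the 2 replicate arrays of a group on the log2 scale (vertical axis) by the mean log2 intensity of the probe over 8 arrays (horizontal axis, bins), with 1 line per group. The Sin3a pair peaks at 2.50 in the bin from 6 to 7 and joins the other groups to the right of the dashed line, where the bright probes lie.

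Many bright probes differed between the arrays with and without Nanog, and mostly by little. With limma's test and Benjamini-Hochberg adjustment over all 2670 probes, 696 passed at an adjusted p under 0.05, or 26.1%. Of these 344 rose, 12.9% of the bright probes, and 352 fell, 13.2%. The median size of a called change was 0.33 on the log2 scale. Only 10 called probes changed by 2-fold or more, 5 in each direction. Among the 5 rises was a probe of Actb at 1.00, while the other bright probes of Actb gave -0.22 and -0.24. The count was 484, with 237 rises and 247 falls, when the second Sin3a array was left out, and ran from 479 without the second EV array to 732 without the first Nanog array. The near balance of rises and falls is in part set by the quantile normalization found in the deposited values, which gives each array the same distribution, so a shift of all probes one way could not be seen.

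Taking each gene at its bright probe of highest mean, 463 of the 1883 named genes passed, or 24.6%, of which 248 rose (13.2%) and 215 fell (11.4%). The median effect over all named bright genes was 0.015 on the log2 scale. The share called was close over brightness within this range, at 25.8% for probes with a mean log2 level from 9 to 10, 27.3% from 10 to 11, and 25.1% above 11. Among the 417 probes without a symbol, 48 rose and 92 fell. The 4 arrays with Nanog lay all above or all below the 4 without for 654 probes, 24.5% of those tested, of which 521 were also called. Of the 318 genes with several bright probes, 3 had probes called in opposite directions, namely Actb, Eef1b2 and Prep, and no direction is given for these genes.

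**Figure D2:**
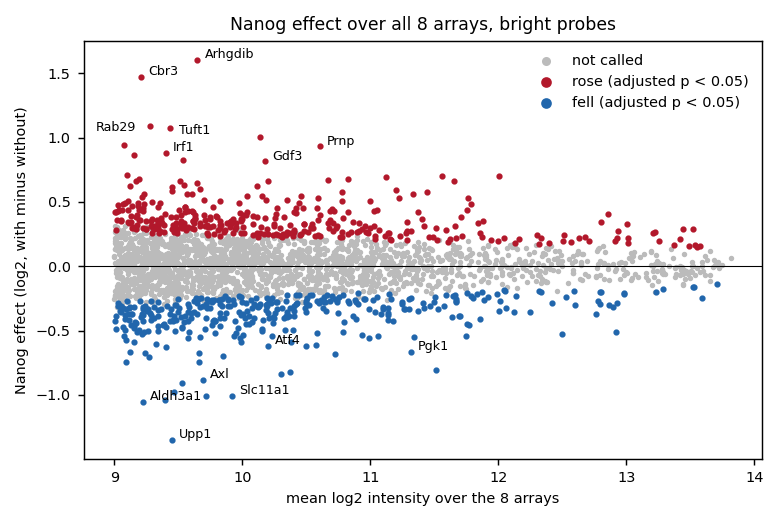
Nanog effect over all 8 arrays (log2, vertical axis) against the mean log2 intensity (horizontal axis) for the 2670 bright probes, with 344 called rises in red, 352 called falls in blue and the rest in grey. Most called probes lie within 0.5 of the zero line, and Arhgdib at 1.60 and Upp1 at -1.35 lie farthest from it.

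The 15 largest rises and 15 largest falls among named genes with called effects and arrays that did not overlap are described next. All 30 passed whichever single array was left out, and so did every other gene named below as having risen or fallen unless a call is said to be lost. Adjusted p-values are limma's over all bright probes. The rule that chose these 30 required that the arrays with and without Nanog did not overlap, so that feature is not repeated for each. Arhgdib, Cbr3, Rab29, Tuft1, Krtdap, Irf1, Timp2 and Dpagt1 had a mean log2 level below 9 without Nanog. Upp1, Aldh3a1, Ubl3, Pdzrn3, Naa15 and Rps3a1 had a level below 9 with it. These genes were bright only through the group where they were higher, as were some genes named later, such as Ier3.

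Arhgdib, which encodes a regulator of the actin cytoskeleton, had the largest rise. It read 478 and 470.2 with EV, 441 and 454 with Sin3a, 1165 and 1439 with Nanog, and 1736 and 1320.4 with Nanog+Sin3a. The lowest array with Nanog was more than 2-fold above the highest without, and the fitted rise was 3.04-fold (log2 1.60, SE 0.10, adjusted p = 9.33e-11). Cbr3, a carbonyl reductase of the cytosol, came next and read 277 and 284 with EV, 429 and 468 with Sin3a, 661 and 728 with Nanog, and 1330.2 and 1457 with Nanog+Sin3a. Each group formed its own step, with Nanog+Sin3a highest and EV lowest, and the rise was 2.77-fold (log2 1.47, SE 0.10, adjusted p = 2.64e-10). Rab29, a small GTPase of the Golgi and lysosome, read 432 and 447 with EV, 454 and 377 with Sin3a, 804 and 966 with Nanog, and 994 and 881 with Nanog+Sin3a, a 2.13-fold rise (log2 1.09, SE 0.10, adjusted p = 6.39e-08). Tuft1, which encodes tuftelin, read 503 and 439 with EV, 487 and 487 with Sin3a, 951 and 758 with Nanog, and 1254 and 1133 with Nanog+Sin3a and rose 2.10-fold (log2 1.07, SE 0.11, adjusted p = 1.10e-07). For Rab29 and Tuft1 the EV and Sin3a arrays shared 1 narrow range.

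The RefSeq promoter of Cbr3 (GRCm38.p6, chr16:93682969-93683268, plus strand) is shown as the promoter of the gene with the largest rise that has a single entry in the promoter table. It runs from 250 bases before the start of the gene to 50 after, and capitals mark its 2 overlapping GGGCGG boxes, the letters of the Sp1 motif.
Cbr3: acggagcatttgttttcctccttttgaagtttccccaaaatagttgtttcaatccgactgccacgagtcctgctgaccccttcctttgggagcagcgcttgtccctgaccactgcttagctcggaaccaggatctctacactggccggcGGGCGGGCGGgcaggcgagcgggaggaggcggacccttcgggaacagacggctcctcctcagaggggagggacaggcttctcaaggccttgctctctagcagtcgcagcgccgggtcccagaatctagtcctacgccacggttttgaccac
It held none of the other 5 motifs searched, which are spelled out with their shares over all called genes at the end of the results. A match in these letters is a description of the sequence and says nothing of binding.

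Krtdap, a secreted protein of differentiating keratinocytes, read 434 and 499.7 with EV, 392 and 268 with Sin3a, 743 and 658 with Nanog, and 868 and 735 with Nanog+Sin3a. Its arrays without Nanog were spread, with the second Sin3a array lowest, and its rise was 1.92-fold (log2 0.94, SE 0.14, adjusted p = 2.65e-05). Prnp, the cell-surface prion protein, read 1063 and 1061 with EV, 1314 and 1086 with Sin3a, 1998 and 1841 with Nanog, and 2332 and 2486 with Nanog+Sin3a. It rose 1.91-fold (log2 0.93, SE 0.084, adjusted p = 3.04e-08), by a like amount in both Sin3a states. Irf1, a transcription factor of the interferon response, read 516 and 518 with EV, 508 and 457 with Sin3a, 1025 and 970.1 with Nanog, and 869 and 819.9 with Nanog+Sin3a and rose 1.84-fold (log2 0.88, SE 0.092, adjusted p = 1.98e-07). Its Nanog arrays were higher than its Nanog+Sin3a arrays, the reverse of the order seen for Cbr3. Gpc1, a heparan sulfate proteoglycan anchored to the cell surface, read 704 and 596 with EV, 606 and 378 with Sin3a, 985 and 920.3 with Nanog, and 1026 and 1016 with Nanog+Sin3a and rose 1.77-fold (log2 0.82, SE 0.13, adjusted p = 4.41e-05), again with the second Sin3a array as the lowest of the 8.

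Gdf3, a TGF-beta family ligand expressed in pluripotent cells, read 948 and 911 with EV, 894 and 757 with Sin3a, 1613 and 1894 with Nanog, and 1467 and 1249.7 with Nanog+Sin3a. It had the largest change among the 6 bright pluripotency genes and rose 1.76-fold (log2 0.82, SE 0.091, adjusted p = 5.36e-07). The remaining 6 of the 15 rose by 0.66 to 0.71 on the log2 scale. They were Timp2, an inhibitor of matrix metalloproteinases, Anxa3, a phospholipid-binding annexin, Spop, the substrate adaptor of a Cul3 ubiquitin ligase, Dpagt1, the first enzyme of dolichol-linked glycan assembly, the tetraspanin Cd9, and Fkbp4, a partner of Hsp90. In intensity units Anxa3 lay at 4739 to 6097 with Nanog and 2917 to 3410.3 without, Cd9 at 1712 to 2399 with Nanog and 1207 to 1362 without, and Fkbp4 at 3837 to 4439 with Nanog and 2442 to 2814 without. A second bright probe of Anxa3 gave the same log2 rise of 0.70.

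Upp1, uridine phosphorylase of the pyrimidine salvage pathway, had the largest fall. It read 1178 and 1049 with EV, 1164 and 1069.5 with Sin3a, 552 and 514 with Nanog, and 348 and 373 with Nanog+Sin3a. The arrays of the EV and Sin3a groups were alike, the Nanog arrays were in between, and the Nanog+Sin3a arrays were lowest, giving a 2.54-fold fall over all 8 arrays (log2 -1.35, SE 0.11, adjusted p = 4.02e-09). Aldh3a1, an aldehyde dehydrogenase, read 829 and 759 with EV, 882 and 986 with Sin3a, 449 and 373 with Nanog, and 428 and 413 with Nanog+Sin3a. It fell 2.07-fold (log2 -1.05, SE 0.10, adjusted p = 8.09e-08), and all 4 arrays with Nanog lay within 373 to 449. Slc11a1, a transporter of divalent metals, read 1163 and 1568 with EV, 1302 and 1481 with Sin3a, 755 and 665 with Nanog, and 744 and 579.8 with Nanog+Sin3a and fell 2.01-fold (log2 -1.01, SE 0.10, adjusted p = 1.53e-07).

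The RefSeq promoter of Slc11a1 (GRCm38.p6, chr1:74374953-74375252, plus strand) is shown by the same rule, as that of the gene with the largest fall and a single entry. It has no GGGCGG box on either strand, so it carries no capitals, and none of the other 5 motifs.
Slc11a1: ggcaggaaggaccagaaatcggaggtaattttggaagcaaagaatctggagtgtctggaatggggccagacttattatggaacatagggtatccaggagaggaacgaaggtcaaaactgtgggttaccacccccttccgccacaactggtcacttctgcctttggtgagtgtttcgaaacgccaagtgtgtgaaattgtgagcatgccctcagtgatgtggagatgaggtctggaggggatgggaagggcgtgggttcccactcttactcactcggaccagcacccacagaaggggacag
The pair of promoters differ in this motif, but the share of promoters with it was nearly the same among genes that rose and fell.

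Axl, a receptor tyrosine kinase for the ligand Gas6, read 993 and 881 with EV, 1358 and 1344 with Sin3a, 665 and 563 with Nanog, and 609.8 and 606 with Nanog+Sin3a. The arrays with Nanog lay in a like low range in both Sin3a states, although the Sin3a arrays were above the EV arrays, and the fall was 1.84-fold (log2 -0.88, SE 0.10, adjusted p = 1.29e-06). Wfdc2, a small secreted protein with whey acidic protein domains, read 1971 and 1884 with EV, 1433 and 1514 with Sin3a, 926 and 842 with Nanog, and 888 and 1139 with Nanog+Sin3a and fell 1.79-fold (log2 -0.84, SE 0.10, adjusted p = 3.08e-06). Here the EV arrays were the highest. Ubl3, a ubiquitin-like protein attached to membranes, read 692 and 806 with EV, 630.4 and 698 with Sin3a, 470.3 and 464 with Nanog, and 381 and 377 with Nanog+Sin3a and fell 1.67-fold (log2 -0.74, SE 0.10, adjusted p = 9.99e-06). Sms-ps is annotated as a pseudogene of spermine synthase, so its probe may read the parent gene, and its fall of 0.82 on the log2 scale is uncertain as to which was measured.

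Pgk1, a phosphoglycerate kinase of glycolysis, read 3285 and 3388 with EV, 3081 and 3104 with Sin3a, 2322 and 2130.3 with Nanog, and 1930.2 and 1768 with Nanog+Sin3a. All 4 arrays without Nanog lay within 3081 to 3388, and the fall was 1.58-fold (log2 -0.66, SE 0.074, adjusted p = 5.36e-07). Atf4, the transcription factor of the integrated stress response, read 1418 and 1547 with EV, 1372 and 1503 with Sin3a, 1272 and 777 with Nanog, and 825 and 989.7 with Nanog+Sin3a. It fell 1.54-fold (log2 -0.62, SE 0.11, adjusted p = 0.000250), and the first Nanog array lay close to the arrays without Nanog. COX2, the cytochrome oxidase subunit encoded by mitochondrial DNA, read 1474 and 2598 with EV, 1569.9 and 1739.8 with Sin3a, 1262 and 1218 with Nanog, and 1086 and 1115 with Nanog+Sin3a, with the second EV array standing above the other 7, and fell by 0.62 on the log2 scale. Naa15 and Naa25, the auxiliary subunits of the N-terminal acetyltransferases NatA and NatB, fell side by side. Naa15 lay at 402 to 531 with Nanog and 679 to 729 without, and Naa25 at 497 to 569 with Nanog and 758 to 839.6 without, with log2 falls of 0.59 and 0.60, and another probe of Naa25 gave -0.23 without passing. The ubiquitin ligase Pdzrn3 fell by 0.67, the endocytic adaptor Dab2 by 0.59 and the ribosomal protein gene Rps3a1 by 0.57.

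**Figure D3:**
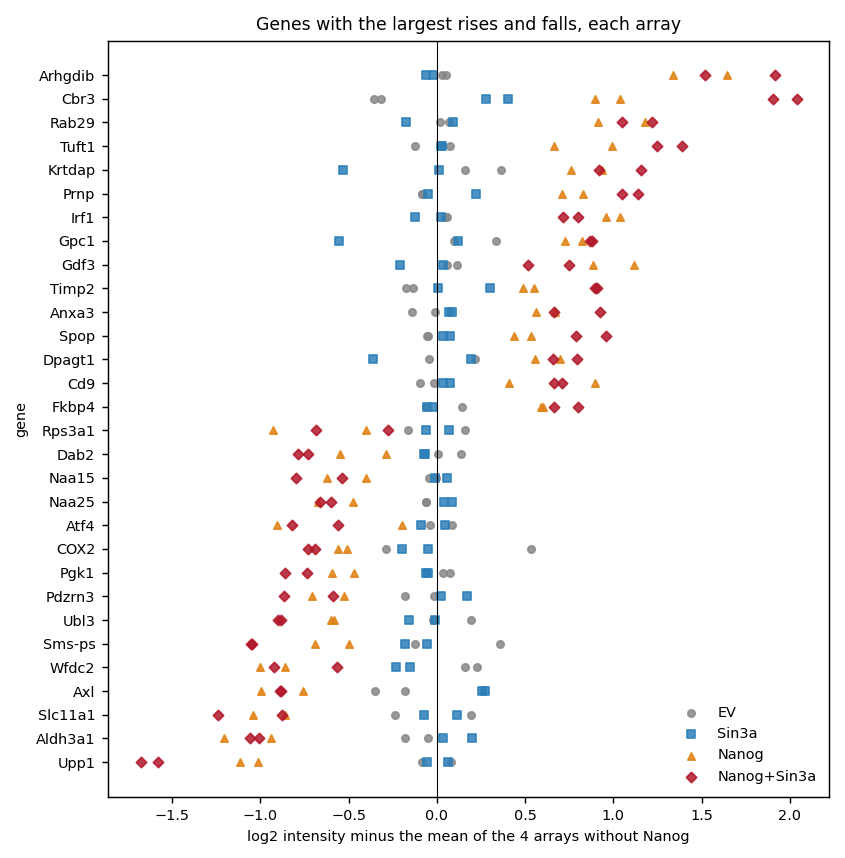
Each of the 8 arrays for the 15 genes with the largest rises and the 15 with the largest falls, as log2 intensity minus the mean of the 4 arrays without Nanog (horizontal axis), with 1 row per gene and 1 marker shape and colour per group. EV and Sin3a markers gather near 0, and Nanog and Nanog+Sin3a markers lie to 1 side of them in each row, up to about 2 for Cbr3.

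The Nanog effect was next taken apart by Sin3a state, as Nanog minus EV and as Nanog+Sin3a minus Sin3a, which share no arrays. With 2 arrays against 2, 264 probes passed without the Sin3a transgene, or 9.89%, and 309 with it, or 11.6%. The 123 probes called in both were 46.6% of the first set and 39.8% of the second. Of the 264, 251 had the same direction in the other state, and of the 309, 298 did, against 72.0% over all bright probes. Across the 2670 probes the effects in the 2 states correlated at a Pearson r of 0.695 and a Spearman rank coefficient of 0.642. These are descriptions across probes, which are not independent of each other. Both counts leaned on single arrays. The count of 264 became 34 without the second EV array, 100 without the first EV array, 94 without the second Nanog array and 552 without the first. The count of 309 became 87 when the second Sin3a array was dropped and 200 when the first was, 113 and 143 when a Nanog+Sin3a array (first, then second) was dropped, and 483 and 488 when a Nanog array was, arrays that enter this contrast through the shared spread alone.

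A test of the difference between the states found 1 probe of 2670, or 0.0375%, at an adjusted p under 0.05, and 170 at an unadjusted p under 0.05. The probe belongs to Acta2, the smooth muscle actin. It read 474 and 408 with EV, 851 and 940.3 with Sin3a, 711 and 718 with Nanog, and 566 and 443 with Nanog+Sin3a. Nanog went with a level 0.70 higher on the log2 scale without the Sin3a transgene and -0.84 with it, so the arrays with 1 transgene were higher than those with none or both. The interaction was -1.54 (limma, adjusted p = 0.000811), and without the second EV array its adjusted p was 0.0503. The count of 1 became 0 without the second EV array, 21 without the first Nanog array, and 2 without the second Nanog or the first EV array. Over all 8 arrays the Acta2 effect of -0.068 did not pass.

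Among the genes with the largest changes the sizes in the 2 states differed without passing that test. Krtdap had effects of 0.59 without Sin3a and 1.30 with it on the log2 scale (limma, adjusted p of the difference = 0.663). Upp1 had values of -1.06 and -1.63 (adjusted p of the difference = 0.663). Wfdc2 had -1.13 and -0.55 (adjusted p of the difference = 0.561), the other way round. Krt14, a keratin of basal epithelium, had 0.30 and 0.99 (adjusted p of the difference = 0.400). A p that misses the threshold in so few arrays does not show that the effects were equal.

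**Figure D4:**
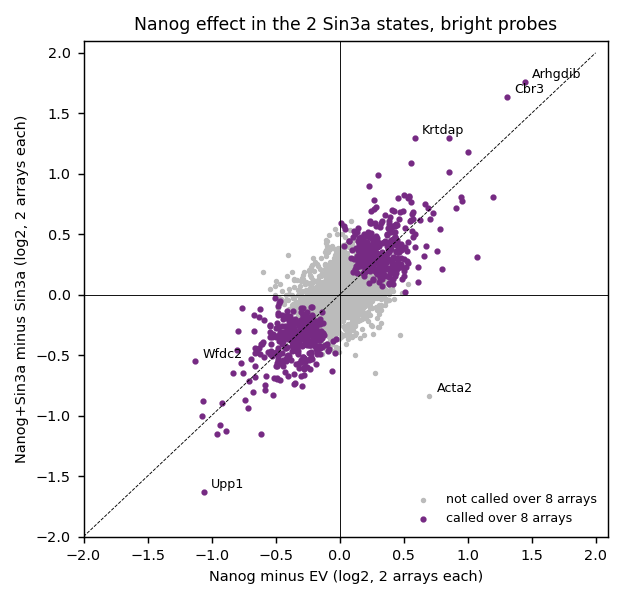
Nanog effect with the Sin3a transgene (vertical axis) against the effect without it (horizontal axis), both log2 and each from 2 arrays against 2, for the 2670 bright probes, with the 696 probes called over all 8 arrays in purple and the dashed line marking equal effects. Called probes lie along the dashed line, in part because the call was made on the mean of the 2 plotted effects. Acta2 lies off the line in the lower right, at 0.70 and -0.84.

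Gene lists covering 48 pathways, complexes and cell types were then read against the 13.2% of named bright genes that rose and the 11.4% that fell. Of the pluripotency factors, 6 of 44 on the array were bright, 2 rose and 0 fell. These were Gdf3, described above, and Fbxo15, an F-box gene that Oct4 and Sox2 are known to switch on, which lay at 812 to 1074 with Nanog and 723 to 756 without and rose 1.28-fold (log2 0.36, SE 0.091, adjusted p = 0.00574). The median of the 6 was 0.20, against 0.015 over all named bright genes. Another 6 listed pluripotency genes were at the floor on all 8 arrays, namely Dppa3, Lefty1, Nr0b1, Otx2, Tcl1 and Utf1. Of the 17 Rhox and germline genes on the array none was bright, so the comparison holds no value for them.

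Signalling genes were mostly too dim to enter. Of the ERK feedback and immediate early genes 3 of 34 were bright and 1 rose. This was Ier3, an early response gene, which read 600.0 and 506 with EV, 514 and 260.1 with Sin3a, 723 and 786 with Nanog, and 641 and 629 with Nanog+Sin3a and rose 1.54-fold (log2 0.62, SE 0.15, adjusted p = 0.00288). Of the LIF and Stat3 genes 4 were bright. The feedback inhibitor Socs2 rose by 0.31 and the kinase Pim3 fell by 0.31, but neither held on every set of 7 arrays. Socs2 lost its call without the first Nanog array, the first Nanog+Sin3a array or either EV array, and Pim3 without the second Nanog+Sin3a array or its Sin3a counterpart, each of which left a count of 1 or 2 for the list. Among 3 bright receptor tyrosine kinases and growth factors, Axl fell and Pdgfa, a ligand of the PDGF receptors, rose. Pdgfa read 951 and 981 with EV, 1048 and 775 with Sin3a, 1793 and 1541 with Nanog, and 1098 and 1568 with Nanog+Sin3a, a 1.58-fold rise (log2 0.66, SE 0.11, adjusted p = 0.000102), with its lowest array with Nanog close to its highest without. None of the 3 bright Wnt, TGF-beta and Notch genes passed, with values of 0.13 for the BMP target Id1 and -0.059 for beta-catenin, Ctnnb1. A dimmer probe of Ctnnb1 gave -0.43 and was called (limma, adjusted p = 0.00864), so its probes disagreed. No gene of the insulin-like growth factor axis was bright.

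Genes of the cell surface and the matrix had more rises than falls. Of 17 bright adhesion and surface genes, 9 rose and 2 fell, and their median was 0.23. The count of 11 was 7 without the first Sin3a array and within 1.5 times of 11 without any other array. Beside Prnp and Cd9, the tetraspanin Cd151 lay at 1676 to 2179 with Nanog and 1358 to 1485 without and rose 1.34-fold (log2 0.43, SE 0.082, adjusted p = 0.000580), while its other bright probes gave 0.15 and 0.11 and did not pass. Itga3, an integrin subunit that partners with Cd151, went the other way. It lay at 975 to 1349.9 with Nanog and 1404 to 1721 without and fell 1.41-fold (log2 -0.49, SE 0.094, adjusted p = 0.000504). Of 10 bright matrix genes 4 rose and 1 fell, with a median of 0.22. Sparc, a matrix glycoprotein, read 769 and 714 with EV, 897 and 1042 with Sin3a, 1099.6 and 1249 with Nanog, and 1277 and 1144 with Nanog+Sin3a and rose 1.41-fold (log2 0.49, SE 0.094, adjusted p = 0.000504). Serpinh1, the collagen chaperone, lay at 1362 to 1818 with Nanog and 1068 to 1303 without and rose by 0.45. Timp1 fell by 0.42 while its relative Timp2 rose by 0.71, both on the log2 scale.

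Among the 34 bright actin, myosin and contractile genes 7 rose and 5 fell, with a median of 0.019. Arhgdib led the rises. Tmsb4x, which binds actin monomers, lay at 2614 to 3664 with Nanog and 1804 to 2518 without and rose 1.47-fold (log2 0.56, SE 0.095, adjusted p = 0.000144), and Tagln2, an actin-binding protein, rose by 0.45. Arpc2, a subunit of the Arp2/3 complex that starts branched actin filaments, lay at 678 to 866 with Nanog and 949 to 1199 without and fell 1.34-fold (log2 -0.42, SE 0.097, adjusted p = 0.00264). Of 9 bright keratins and annexins 3 rose and 1 fell. Anxa5 lay at 1739.8 to 2008 with Nanog and 1143 to 1439 without and rose 1.44-fold (log2 0.53, SE 0.078, adjusted p = 2.93e-05). Krt14 read 542 and 495 with EV, 835 and 751 with Sin3a, 592 and 686 with Nanog, and 1500.1 and 1650.1 with Nanog+Sin3a, so its arrays overlapped, with the Sin3a arrays above the Nanog arrays and the Nanog+Sin3a arrays above all others. S100a10, a partner of annexin A2, fell by 0.23, a call lost without the second Nanog array and without any array of the Nanog+Sin3a and Sin3a groups or the second EV array.

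Detoxification genes held both a large rise and a large fall. Of 22 bright members 6 rose and 5 fell, and the median was 0.047. Cbr3 at 1.47 and Aldh3a1 at -1.05 were the ends of the list. Aldh2, the aldehyde dehydrogenase of mitochondria, read 1545 and 1379 with EV, 1493 and 1492 with Sin3a, 2008 and 1943 with Nanog, and 2224 and 2237 with Nanog+Sin3a and rose 1.42-fold (log2 0.51, SE 0.078, adjusted p = 4.55e-05). The arrays of the EV and Sin3a groups were nearly level for this gene. Txn1, thioredoxin, fell by 0.37, a call that went when the second Nanog, first Nanog+Sin3a or second EV array was left out.

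All called genes of the integrated stress response and amino acid supply fell. Of 9 bright members 4 fell and 0 rose, and the median was -0.25. Beside Atf4, these were Psat1, an enzyme of serine synthesis, Eif4ebp1, a repressor of cap-dependent translation, and Slc38a2, a transporter of neutral amino acids. Psat1 read 2882 and 3052 with EV, 3216 and 3443 with Sin3a, 2335 and 2297 with Nanog, and 1903 and 2099 with Nanog+Sin3a and fell 1.46-fold (log2 -0.55, SE 0.082, adjusted p = 3.47e-05). Eif4ebp1 read 1753 and 1744 with EV, 1748 and 2111 with Sin3a, 1371 and 1051 with Nanog, and 1199 and 1554 with Nanog+Sin3a and fell 1.43-fold (log2 -0.52, SE 0.097, adjusted p = 0.000430). Slc38a2 read 629 and 834 with EV, 651 and 669 with Sin3a, 661 and 408 with Nanog, and 388 and 528 with Nanog+Sin3a, so the first Nanog array lay among those without Nanog, and a second bright probe of this gene gave 0.13 against -0.51 for the first, so the gene is uncertain. The 4 falls were seen whichever single array was left out. Of the 13 bright aminoacyl-tRNA synthetase genes 2 rose and 1 fell. Vars, the valyl synthetase, lay at 868 to 1084 with Nanog and 609.8 to 772 without and rose 1.43-fold (log2 0.52, SE 0.097, adjusted p = 0.000422), though another probe of it gave 0.16 and did not pass. Eef1e1, a scaffold protein of the synthetase complex, fell by 0.38. Gars, the glycyl synthetase, had 0.22, a call lost without either Nanog+Sin3a or Sin3a array or the second EV array. Its effect was 0.037 without the Sin3a transgene and 0.40 with it (limma, adjusted p of the difference = 0.679).

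In central metabolism rises and falls were mixed. Of 14 bright glycolysis and hypoxia genes 3 rose and 3 fell. Pgk1 had the largest change, and Bnip3l, a mitophagy receptor induced by hypoxia, lay at 824 to 932 with Nanog and 1119 to 1195 without and fell 1.30-fold (log2 -0.38, SE 0.083, adjusted p = 0.00199). The prolyl hydroxylase Egln3 fell by 0.32, a call lost without either EV array, the second Nanog array or the second Nanog+Sin3a array. The glucose transporter Slc2a1 had 0.30, a call lost without any array of the Nanog+Sin3a or Sin3a groups. Its effect was 0.037 without the Sin3a transgene and 0.56 with it, but the difference did not pass (limma, adjusted p of the difference = 0.426). Of 14 bright fatty acid genes 3 rose and 0 fell, with a median of 0.11. Etfb, a subunit of the flavoprotein that takes electrons from fatty acid oxidation, read 648 and 615 with EV, 681 and 709.9 with Sin3a, 797 and 1106 with Nanog, and 1074 and 1066 with Nanog+Sin3a and rose 1.51-fold (log2 0.60, SE 0.097, adjusted p = 9.27e-05), and Hacd1, a dehydratase of fatty acid elongation, rose by 0.42. Etfa, the partner subunit of Etfb, had 0.28, a call lost without the first Sin3a array, and its other probes gave 0.11 and -0.24 and did not pass. Of 5 bright cholesterol genes 2 rose, led by Fdps, farnesyl diphosphate synthase, at 1735 to 2005 with Nanog and 1381 to 1515 without (log2 0.36, SE 0.080, adjusted p = 0.00199). The other, Hsd17b7, had 0.30, which was lost without the first Nanog, second Nanog+Sin3a, first Sin3a or either EV array.

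Nucleotide synthesis and DNA replication genes did not share 1 direction. Of 23 bright pentose phosphate and nucleotide genes 4 rose and 3 fell, and the count of 7 was 4 without the second Sin3a array. Gart, an enzyme of purine synthesis, lay at 972 to 1262 with Nanog and 783 to 920.3 without and rose 1.27-fold (log2 0.34, SE 0.091, adjusted p = 0.00790), with a further probe at 0.089 that did not pass. Rrm1, the large subunit of ribonucleotide reductase, fell by 0.31. Of 30 bright replication genes 3 rose and 5 fell, a count of 8 that was 5 without the second EV array. The thymidine kinase Tk1 lay at 1011 to 1189 with Nanog and 737 to 962 without and rose 1.29-fold (log2 0.37, SE 0.090, adjusted p = 0.00441). Rpa3, a subunit of the single-strand binding complex, lay at 822 to 1160.4 with Nanog and 1203 to 1465 without and fell 1.33-fold (log2 -0.42, SE 0.086, adjusted p = 0.00106). The DNA ligase Lig1 fell by 0.40, and Pold2, a subunit of polymerase delta, rose by 0.32.

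Of 28 bright mitosis genes 6 rose and 1 fell, with a median of 0.10, but this count rested on small effects. It was 1 without the second EV array, and 3 on leaving out the second Nanog array, the first Nanog+Sin3a array or either Sin3a array. Ncapd2, a condensin subunit, read 508 and 583 with EV, 600.4 and 525 with Sin3a, 659.6 and 680.0 with Nanog, and 760.1 and 722 with Nanog+Sin3a and rose 1.27-fold (log2 0.35, SE 0.097, adjusted p = 0.0105), whichever array was left out. The kinesin Kif22 had 0.28, a call lost without the second EV array. Neither bright CDK inhibitor or p53 target passed. Gtse1, a regulator of p53 in G2, had 0.25 and an adjusted p of 0.0596 by limma, and Cdkn2a, which encodes the p16 and p19Arf inhibitors, had 0.015 and an adjusted p of 0.939.

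Falls outnumbered rises among the called genes of ribosome production, but the share called was no higher than the 24.6% of all named bright genes. Of 47 bright ribosome biogenesis and nucleolus genes 2 rose and 9 fell, with a median of -0.052. The count of 11 was 5 when the second EV array was left out, 6 when the second Nanog+Sin3a array was and 7 when its Sin3a counterpart was, with 0 to 3 rises and 5 to 9 falls over all sets of 7 arrays. Pa2g4, a nucleolar growth regulator, read 1256 and 1221 with EV, 1141 and 1104 with Sin3a, 886 and 876 with Nanog, and 734 and 754 with Nanog+Sin3a and fell 1.46-fold (log2 -0.54, SE 0.082, adjusted p = 3.53e-05). Bop1, which acts in maturation of the large subunit rRNA, lay at 520.3 to 771 with Nanog and 764 to 862 without and fell 1.34-fold (log2 -0.42, SE 0.11, adjusted p = 0.00599), with its first Nanog array inside the range without Nanog. Rrp12, a factor of small subunit export, fell by 0.40.

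The 50 bright cytosolic ribosomal protein genes split into 7 rises and 8 falls. Their count of 15 was 8 without either Sin3a array and 9 when the second EV array was left out. Rps3a1 had the largest fall, and Rpl29 and Rpl39 fell by 0.32 and 0.30. Rps25 had the largest rise, 0.35, which was lost without either Sin3a array or the second Nanog+Sin3a array, itself the highest at 4129.5. These genes have many processed pseudogenes, whose RNA a probe may also read. Of 39 bright translation factors 5 rose and 8 fell, a count of 13 that became 7 on leaving out the second EV array and 8 on leaving out the second Sin3a array. Eif2b1, a subunit of the exchange factor for eIF2, lay at 838 to 1022 with Nanog and 563 to 732 without and rose 1.35-fold (log2 0.43, SE 0.098, adjusted p = 0.00262), and Pabpc1, the poly(A)-binding protein, fell by 0.38.

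Mitochondrial genes held strong single rises within lists of mixed direction. Of 57 bright respiratory chain and ATP synthase genes 9 rose and 10 fell, with a median of 0.012, and the count of 19 was 10 without the second Sin3a array and 12 without the second Nanog array. The complex I subunits Ndufa9 and Ndufa8 had the largest rises. Ndufa9 read 2282 and 2130.3 with EV, 2318 and 2370.3 with Sin3a, 3251 and 3190.0 with Nanog, and 3420.5 and 3749 with Nanog+Sin3a and rose 1.49-fold (log2 0.58, SE 0.071, adjusted p = 2.42e-06). Ndufa8 lay at 2539.5 to 3175 with Nanog and 1948 to 2038 without and rose 1.44-fold (log2 0.53, SE 0.082, adjusted p = 4.72e-05), and its other bright probe gave 0.51. Atp5a1, the alpha subunit of ATP synthase, lay at 552 to 766 with Nanog and 747 to 1076 without and fell 1.40-fold (log2 -0.48, SE 0.096, adjusted p = 0.000780), and Ndufaf2, an assembly factor of complex I, fell by 0.42.

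Of 59 bright mitochondrial ribosomal protein genes 8 rose and 3 fell, with a median of 0.0081. The count of 11 was 5 with the first Nanog+Sin3a array or the second EV array left out and 7 with the second Sin3a array left out. Mrps34 of the small subunit read 1290.2 and 961 with EV, 1209.6 and 1235 with Sin3a, 1594 and 1759 with Nanog, and 1841 and 1633 with Nanog+Sin3a and rose 1.46-fold (log2 0.55, SE 0.091, adjusted p = 0.000120), and Mrpl2 of the large subunit rose by 0.38. Of 27 bright TCA cycle and carrier genes 2 rose and 6 fell, with a median of -0.093. That count of 8 was 3 without the second Sin3a array, 4 without the first Sin3a, the second EV or the first Nanog+Sin3a array, and 5 without the second Nanog+Sin3a array. The phosphate carrier Slc25a3 lay at 1981 to 2489 with Nanog and 2584 to 3040.4 without and fell 1.26-fold (log2 -0.34, SE 0.080, adjusted p = 0.00370), and a dimmer probe of it gave -0.22 without passing.

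Chaperones and protein breakdown were also mixed. Of 40 bright chaperone genes 6 rose and 6 fell, and the count of 12 was 6 without the second EV or the second Sin3a array. Fkbp4 rose by 0.66 while Hsp90aa1, the inducible form of the Hsp90 that Fkbp4 binds, lay at 812 to 1043 with Nanog and 1106 to 1466 without and fell 1.31-fold (log2 -0.38, SE 0.088, adjusted p = 0.00264). Of 26 bright proteasome genes 4 rose and 2 fell, which became 2 in all on dropping the second Sin3a array and 3 on dropping the second EV array. Psmb10, a catalytic subunit of the immunoproteasome, lay at 1469 to 1770.0 with Nanog and 1078 to 1280.2 without and rose 1.33-fold (log2 0.41, SE 0.083, adjusted p = 0.000944). Of 20 bright ubiquitin genes 1 rose, Fbxo15, and 4 fell, a count of 5 that was 3 without either EV array. Ubxn1, a cofactor of the p97 ATPase, read 2447 and 2294 with EV, 2217 and 2450.4 with Sin3a, 1804 and 1721 with Nanog, and 1492 and 1507 with Nanog+Sin3a and fell 1.45-fold (log2 -0.53, SE 0.079, adjusted p = 2.93e-05), and Uchl5, a deubiquitinase of the proteasome, fell by 0.41. Of 18 bright lysosome genes 4 rose and 0 fell. Sqstm1, the autophagy receptor p62, lay at 805 to 992 with Nanog and 613 to 719 without and rose 1.34-fold (log2 0.43, SE 0.096, adjusted p = 0.00212), Atp6v0d1 of the proton pump rose by 0.44, and Psap, the precursor of saposins, rose by 0.38. The fourth, Gusb, had 0.25, a call held by 2 of the 8 sets of 7 arrays.

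Genes of chromatin and of nuclear RNA were counted next. Of 9 bright Sin3 and NuRD subunits 0 rose and 1 fell. This was the demethylase Kdm1a at -0.24, a call held by only 1 of the 8 sets of 7 arrays, the one without the second Nanog array. None of the 3 bright DNA methylation genes passed, with Uhrf2 at 0.076 and Dnmt1 at -0.059 on the log2 scale. No imprinted gene of 4 passed, the largest being Impact at 0.23, and none of 7 linker and variant histones and HMG proteins did, with Hmgn2 at 0.16, although 1 of them was called without the second Nanog array. Of 44 bright splicing genes 1 rose and 5 fell. The rise was Sf3b3 of the SF3b complex, which lay at 825 to 977 with Nanog and 621 to 683 without and rose 1.34-fold (log2 0.42, SE 0.091, adjusted p = 0.00164), and the largest fall was Prpf19, a spliceosome ubiquitin ligase, by 0.33, with other Prpf19 probes at -0.10 and -0.47. Among 14 nuclear transport genes Nup210, a nucleoporin of the pore membrane, read 932 and 822 with EV, 924 and 991 with Sin3a, 631 and 659 with Nanog, and 607 and 668 with Nanog+Sin3a and fell 1.43-fold (log2 -0.51, SE 0.090, adjusted p = 0.000198). That list's count of 1 was 2 without the first Nanog or first EV array and 3 without the second Nanog+Sin3a array. Of 6 bright interferon and antigen presentation genes 2 rose, Irf1 and the class I light chain B2m, the latter by 0.29, with a further B2m probe at 0.17 that did not pass.

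**Figure D5:**
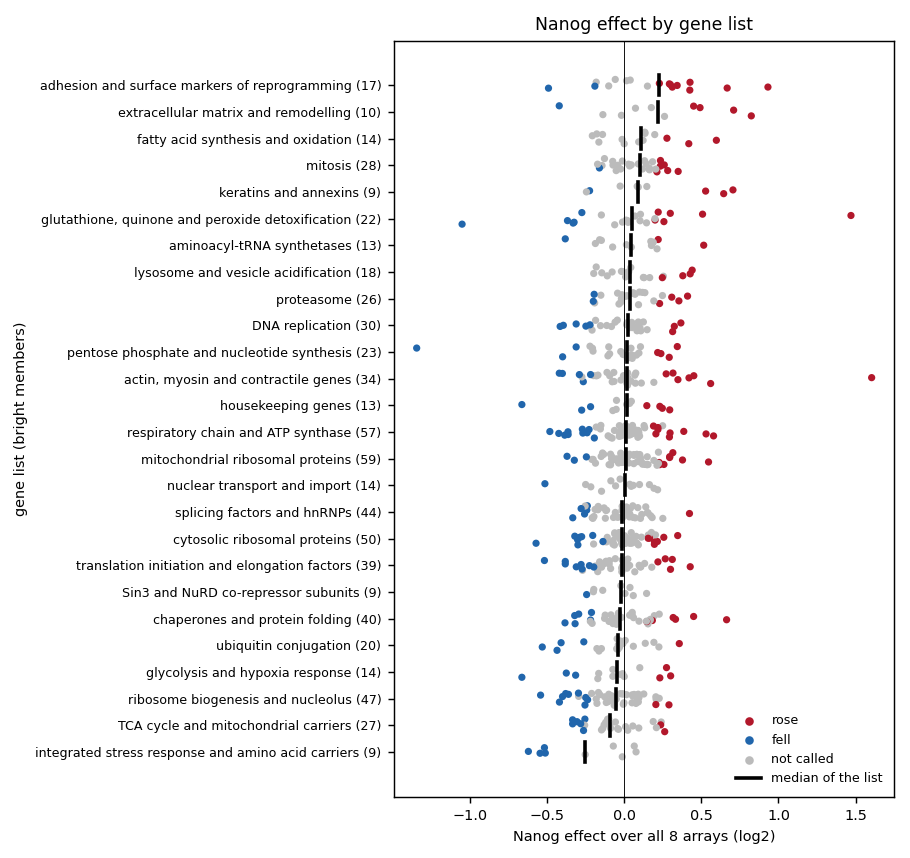
Nanog effect over all 8 arrays (log2, horizontal axis) for the bright members of each gene list with at least 9 of them (vertical axis, number of bright members in brackets), 1 point per gene, with rises in red, falls in blue, genes that did not pass in grey and a black bar at the list's median. Adhesion genes have the highest median, 0.23, and the integrated stress response the lowest, -0.25, while ribosomal, proteasome and respiratory lists spread to both sides of 0.

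Reference genes and markers of other cells were read the same way. Of 13 bright housekeeping genes 4 rose and 3 fell, a count of 7 that was 4 without the second EV, the second Nanog+Sin3a or either Sin3a array. B2m and Pgk1 were called among them, so they differed between the groups. Both bright fibroblast and mesenchyme markers rose, Sparc and Vim, the intermediate filament vimentin, which lay at 2625 to 2973 with Nanog and 2199.9 to 2529.6 without and rose by 0.27. The summed intensity of the 24 fibroblast markers was 6140 to 6570 with Nanog and 5159 to 5680 without, with 8 of 24 above the floor on all 8 arrays and Cdh11, Col1a2, Col3a1, Fap and Twist2 at the floor on all. Intensities were added unscaled, so this sum largely repeats Vim and Sparc. Sparc lay at 1099.6 to 1277 with Nanog and 714 to 1042 without. The part of this marker set in the rises of matrix and surface genes was not tested. The epithelial marker sum was 1197 to 1640 with Nanog and 1548 to 2138 without, which overlap. Krt8 was the only bright member of this list and of the trophectoderm list below. It lay at 816 to 1199 with Nanog and 1041.5 to 1124 without, and its effect of -0.25 did not pass. Of those 19 genes 2 were above the floor on all arrays, and Cldn4, Krt18 and Tjp3 were at it on all.

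Of the 18 neural stem cell markers, a list for the cells of origin, 3 were above the floor on all 8 arrays. Fabp7, Pax6, Ptprz1 and Slc1a3 were at the floor on all 8. Of the 2 bright members 1 rose, Vim at 0.27, and the other had 0.039 and did not pass. The markers at the floor thus do not stand for the whole list. The sum over the 18 markers, which include the bright Vim, was 5005 to 5421 with Nanog and 4709 to 5403 without. The neuron sum, with 4 of 21 above the floor, was 2836 to 3359 with Nanog and 2322 to 2890 without. The only bright neuron marker, Stmn2, had an effect of -0.087 and did not pass. The primitive endoderm sum was 2149 to 2322 with Nanog and 2170.5 to 2611 without, with Afp, Cubn, Foxa2, Gata4, Lama1 and Ttr at the floor on all arrays. Its bright members went both ways, Sparc up and Dab2 down. Markers of trophectoderm gave 1567 to 1960 with Nanog against 1796 to 2000.1 without, and of endothelium 582.5 to 792 against 484 to 790.0. The blood sum was 48 to 64 with Nanog and 47.9 to 541 without, and the sum for astrocytes and oligodendrocytes 207 to 253.5 and 160.2 to 673, so both pairs of ranges overlapped. No marker of endothelium, blood, or astrocytes and oligodendrocytes was bright. These sums thus rest on dim probes, where the second Sin3a array departed from its replicate. Their upper ends without Nanog, such as 541 and 673, are not read as marker expression. The other sums also hold dim probes.

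Promoters were searched in the RefSeq table on both strands for 6 motifs, with 207 of 248 risen and 166 of 215 fallen genes matched. The Sp1 box GGGCGG was held by 69.6% of the risen and 68.1% of the fallen genes, against 71.7% of all bright genes and 38.2% of all genes in the table. The antioxidant response element core TGACNNNGC was held by 18.8% and 15.7%, against 16.3% of bright genes. The E-box CACGTG was held by 12.1% and 13.3%, against 13.9%. The motif TATAAA was held by 9.66% and 5.42%, against 9.04%. The element TGACGTCA was held by 4.83% and 3.61%, against 4.46%, and TGATGNAAN, the letters of the CEBP-ATF element, by 4.35% and 2.41%, against 2.17%. Each pair of shares gives the risen genes first, and the last 2 motifs rest on 4 to 10 genes per direction.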

How the data were processed

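RNA of 8 samples was hybridised to Illumina bead arrays, 2 arrays for each of 4 groups, per the labels. The deposited values are intensity per probe, made by the authors with GenomeStudio per the submitters' processing notes, whose version and settings are not given in the sources used here. The values showed a subtracted background and, from their sorted order, quantile normalization between arrays. The number of arrays limits the precision.

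Values below 16 were raised to 16 and converted to log2. Probes with a mean above 9 over the 8 arrays were kept. By the array annotation 34885 probes have 1 symbol, 18 have several and 10378 have none, and 34807 probes were matched to RefSeq genes, which changed 0 symbols. A gene was read at its bright probe of highest mean. Effects were fitted in R 4.3.3 with limma 3.58.1 (lmFit, then eBayes with an intensity trend), as a Nanog term and a Sin3a term over all 8 arrays, or with 1 coefficient per group for the effect in each Sin3a state and the interaction. Tests were two-sided, with Benjamini-Hochberg adjustment over all 2670 bright probes and a threshold of 0.05. The procedure was tested on simulated data.

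Named genes were Nanog and Sin3a, the 15 largest called rises and 15 largest called falls whose arrays did not overlap, up to 4 called members per gene list, or values of up to 2 members of a list without calls, and called interactions. Actb, Eef1b2, Prep, Timp1 and the genes at the floor were named after their values were seen. The members, the 48 lists and the rule were chosen with earlier results of these data known. Same-numbered arrays of different groups did not deviate together, with correlations of -0.19 to 0.063, so the numbers were not used as pairs. Alternatives covered the brightness threshold, floor, normalization, trend, array weights, probes per gene, a replicate block and leaving out each array. The labels give no scan date or slide. Promoters came from the RefSeq table of GRCm38.p6.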

Additional observations from a re-analysis of the deposited data

Results flagged for a closer look

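The Nanog effect on Acta2 differed between the Sin3a states by a test of the difference itself. The interaction (the effect with Sin3a minus the effect without it) was -1.54 on the log2 scale, from 0.70 without the Sin3a transgene to -0.84 with it, at an adjusted p of 0.000811 by limma over 2670 bright probes. Both arrays with Nanog alone, at 711 and 718, lay above both EV arrays, and both Nanog+Sin3a arrays, at 566 and 443, lay below both Sin3a arrays. Leaving out the second EV array gave an adjusted p of 0.0503, and testing all probes above the floor gave 0.765. No group was tested for a single array standing apart from the rest, since each group has 2 arrays.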

How the results depend on the processing

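The count of 696 probes for the Nanog effect was 360 of 1415 probes with a mean above 10, 170 of 19673 with no brightness threshold, and 217 without both Sin3a arrays, which leaves in effect 2 arrays against 2 and was chosen after seeing the data. It lay within 1.5 times of 696 under every other alternative run, and from 479 to 732 when each array was left out in turn. The replicate block gave 649, with 322 rises and 327 falls, and 4 named genes lost their call under it. With no brightness threshold 83 named genes lost theirs, and without both Sin3a arrays 50 did. The 129 named genes include some that were not called, such as Dnmt1 and Cdkn2a, and so had no call to lose. Of the 30 genes with the largest changes, those that lost the call with no brightness threshold were Krtdap, Gpc1, Dpagt1, COX2, Atf4, Naa15 and Rps3a1. For the effect without Sin3a the count of 264 was 127 with a mean above 8, 120 above 10, 0 with no threshold (1337 at an unadjusted p under 0.05 by limma), and 34 to 552 with arrays left out. For the effect with Sin3a the count of 309 was 151 above 10, 19 with no threshold, and 87 to 488 with arrays left out. The interaction count of 1 was 2 above 8, 0 above 10 (99 unadjusted), 0 with no threshold (494 unadjusted), 4 with array weights, and 0 to 21 with arrays left out. Apart from the settings named, the causes of these moves were not tested.

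Of the named genes that were not called, Dnmt1 went to 0.10 without both Sin3a arrays, Cdkn2a to -0.057 with array weights and to between -0.097 and 0.094 with arrays left out, and Snurf to between -0.0056 and 0.092 with arrays left out. Over all alternatives run, named genes kept direction and side of the threshold in 2490 fits, lost the call in 267, gained it in 3 and changed sign in 6, none of them a called gene. With 2 arrays per group and no stated independence of the cultures, a change within the spread of these arrays was not detectable, and dimmer probes, which hold most of the pluripotency and signalling genes, entered only the alternatives with a lower or no brightness threshold, the Nanog and Sin3a checks and the marker sums.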
